A study of Mus musculus with 35 samples.

Results

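Chemokines and their receptors were followed in mouse hearts 3 days after surgery, which was either a sham operation or transaortic constriction (TAC), where a band around the aorta makes the left ventricle pump against a higher pressure. The genes were taken by name: every symbol made of Ccl, Cxcl, Ccr or Cxcr and digits, together with Cx3cl1, Cx3cr1, Xcl1, Xcr1 and the atypical receptors Ackr with a digit. The deposited table of 27012 genes held 52 of them, 30 ligands, 18 receptors and 4 atypical receptors. Of these, 26 had a mean normalized count of at least 10 over all libraries and were tested (17 ligands, 6 receptors and 3 atypical receptors), and 26 fell below that level and are described by their values.

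Chemokines are small secreted proteins that guide leukocytes along a gradient. They act on G protein-coupled receptors, which are named after the cysteine spacing of their ligands. CC ligands act on CCR receptors, CXC ligands on CXCR receptors and fractalkine (Cx3cl1) on CX3CR1. CCL2 and its relatives bring CCR2-bearing monocytes from blood to tissue, the CXCR2 ligands bring neutrophils, and CXCL12 acts on CXCR4 and also keeps leukocyte precursors in bone marrow. Atypical receptors bind chemokines without G protein signalling and remove them. In the heart, macrophages, fibroblasts, endothelium and cardiomyocytes can all make chemokines, and their receptors sit mostly on leukocytes.

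RNA was taken from the apex of the heart of C57Bl/6/FVB mice that were operated on at 6 weeks of age. WT mice carried the floxed Irs2 allele (IRS2-flox) and no Cre, IRS1KO mice carried alphaMHC-Cre with IRS1-flox, and IRS2KO mice carried alphaMHC-Cre with IRS2-flox. The products of Irs1 and Irs2 are adaptors that carry the signal of the insulin and IGF1 receptors, and alphaMHC-Cre acts in cardiomyocytes, so other cells of the tissue keep the floxed gene. Each genotype had 6 sham and 6 TAC libraries, except WT TAC with 5 (replicates 1, 2, 3, 5 and 6). No group had Cre alone, and none had IRS1-flox without Cre, so genotype, Cre and the background of each line cannot be told apart. Whether each library came from a mouse of its own is not stated in the labels, and the p-values then measure the spread between these libraries, which may be technical.

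The libraries held 11707111 to 14609467 reads assigned to genes and 18599 to 20803 detected genes. Irs1 lay between 172 and 310 normalized counts in WT sham hearts and between 0 and 43.8 in IRS1KO sham hearts, and between 135 and 221 in WT TAC against 0 to 80.3 in IRS1KO TAC. Irs2 lay between 98.1 and 138 in IRS2KO sham and between 78.6 and 196 in IRS2KO TAC hearts, which overlapped the WT ranges of 93.0 to 564 and 130 to 303. The 12 cardiomyocyte markers summed to between 499923 and 1262120 in every library. One library per genotype lay nearest to the sham hearts over all genes, WT TAC replicate 2, IRS1KO TAC replicate 5 and IRS2KO TAC replicate 4. Each member count given for TAC against sham was within 1.5 times its value when those 3 libraries were left out. They were picked for their closeness to sham, so leaving them out widens the gap and does not test the counts. Over the comparisons run that way, 0 member calls were lost and 5 were gained.

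More of the tested chemokine and receptor genes rose than fell after TAC in each genotype. In WT hearts 17 of 26 rose and 2 fell, where 28.3% of all 13695 tested genes rose and 26.6% fell (limma, adjusted p under the threshold of 0.05). In IRS1KO hearts 18 rose and 4 fell, beside 32.4% and 31.7% of all genes, and in IRS2KO hearts 15 rose and 1 fell, beside 31.3% and 31.1%. The median log2 fold change of the 26 was 2.01 in WT, 1.62 in IRS1KO and 1.53 in IRS2KO, against -0.01 for all genes in each. The filter on low values favours genes that are high after TAC: 8 of the 26 (Ccl2, Ccl7, Ccl8, Ccl12, Cxcl1, Cxcl5, Cxcl10 and Cxcr6) had a mean under 10 over the sham libraries. Among the other 18 genes, 9 rose and 2 fell in WT, 10 rose and 4 fell in IRS1KO, and 8 rose and 1 fell in IRS2KO, with median log2 fold changes of 0.58, 0.66 and 0.37. Fewer cells of a type and less RNA per cell cannot be told apart in whole tissue, here or in any result that follows. Scaling every library to the same total instead moved the median of all genes up, by 0.26, 0.30 and 0.33 on the log2 scale in WT, IRS1KO and IRS2KO. The 15 genes that rose in all 3 genotypes also rose under that scaling. An upward shift favours that outcome, so it does not test their rise.

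The same 15 genes rose in all 3 genotypes, among them the ligands Ccl2, Ccl6, Ccl7, Ccl8, Ccl9, Ccl12, Cxcl5, Cxcl10, Cxcl16 and Cx3cl1, and the receptors Ccr1, Ccr2, Cx3cr1 and Cxcr6. Cxcl1 and Cxcr4 rose in WT and IRS1KO, and Ackr4 rose in IRS1KO. Ackr3 fell in all 3 genotypes, Cxcl12 fell in WT and IRS1KO, and Ccl11 and Ccl24 fell in IRS1KO. Ackr2, Ccl25, Cxcl9 and Cxcl14 did not pass the threshold in any genotype. A gene called in 1 genotype and not in another is not thereby shown to differ between them, and the tests of those differences follow at the end. In 14 of the 26 genes every WT TAC library lay above every WT sham library, beside 17.2% of all tested genes, and 14 did so in IRS1KO (20.5% of all genes) and in IRS2KO (15.7%). These counts include genes that the filter let in through their TAC level: among the other 18 genes they were 8, 8 and 6.

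**Figure D1:**
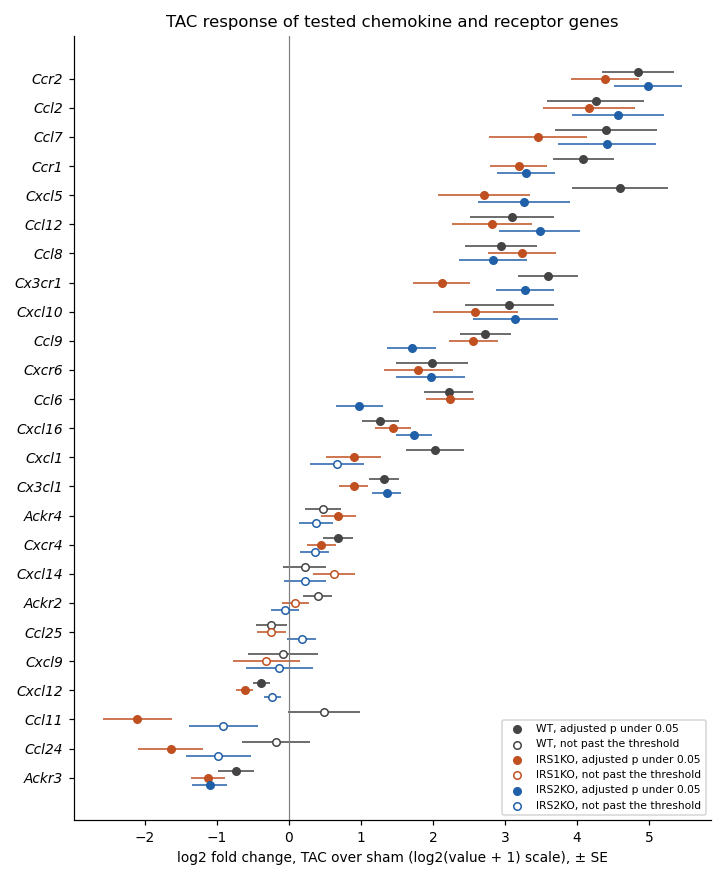
Log2 fold change of TAC over sham (x axis, on the log2(value + 1) scale, bars are ± SE) for tested genes (1 line each), in WT, IRS1KO and IRS2KO hearts. Filled points passed an adjusted p of 0.05 in limma, genes are ordered by their mean over the 3 genotypes from Ccr2 down to Ackr3, and values of genes near 0 in sham, such as Cxcl5, depend on the added 1.

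The make-up of the chemokine signal differed between sham and TAC hearts. In sham hearts 2 genes held most of it: Cxcl12 and Ackr3 together took 81.0% ± 3.15 (SD, n = 6) of the normalized counts of all 52 genes in WT, 81.4% ± 2.41 in IRS1KO and 77.6% ± 1.63 in IRS2KO. After TAC they took 42.0% ± 13.5 (SD, n = 5) in WT, 44.0% ± 11.3 in IRS1KO and 44.5% ± 15.4 in IRS2KO (n = 6). Every TAC library lay below every sham library in this share, with TAC values of at most 69.4% and sham values of at least 74.8%. These shares are not corrected for gene length, which gives long genes more weight: Cxcl12 has 8176 bases of exon and Ccl2 1138. The sum over the 52 genes was 4752 ± 384 in WT sham and 7167 ± 1920 in WT TAC. Per kilobase of exon, the WT sham order was led by Cxcl12 (367 normalized counts per kb), Ackr3 (258), Ccl6 (78.7) and Cxcl14 (46.7), and the WT TAC order by Ccl6 (430.2), Cxcl12 (279.9), Ccl9 (235), Ccl2 (206) and Ccl7 (197).

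Ccl2, Ccl7, Ccl12 and Ccl8 encode the monocyte-attracting ligands, the first 3 acting on CCR2, and they lie in 1 stretch of chromosome 11, with Ccl11 among them (82035571 to 82116799 in GRCm38). Ccl2 stood at 1.94, 5.94 and 10.1 normalized counts (lowest, median and highest library) in WT sham hearts and at 511, 11.5, 269, 340.2 and 40.4 in the 5 WT TAC libraries. Every TAC library was above every sham library, but replicate 2 was barely so and replicate 6 stood well below the other 3. The mean rose 40.1-fold (log2 fold change 4.26, SE 0.67, limma adjusted p = 5.18e-06). In IRS1KO hearts Ccl2 went from 2.04, 5.69 and 12.4 to 61.9, 95.2 and 227, and the means differed 20.4-fold (log2 fold change 4.17, SE 0.64, limma adjusted p = 1.60e-06). In IRS2KO hearts it reached 33.1, 149 and 417 after TAC, 41.1-fold over a sham mean of 4.22 (log2 fold change 4.57, SE 0.64, limma adjusted p = 5.12e-07). The groups did not overlap in either knockout line.

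Ccl7 had the same spread among the WT TAC libraries as Ccl2. It stood at 262, 6.72, 221, 272 and 28.1, over a WT sham mean of 3.46 with a highest library of 7.84. Replicate 2 therefore lay within the sham range and the other 4 above it, and the mean rose 45.6-fold (log2 fold change 4.40, SE 0.71, limma adjusted p = 7.52e-06). The rises were 13.0-fold in IRS1KO, to a mean of 65.4 ± 31.4 (SD, n = 6), and 26.5-fold in IRS2KO, to 90.4 ± 63.2 (n = 6). Ccl12, whose product is close to CCL2 and has no human gene of its own, rose 13.8-fold in WT, 7.40-fold in IRS1KO and 15.1-fold in IRS2KO, to TAC means between 56.9 and 65.4. Ccl8 rose 10.1-fold, 9.51-fold and 8.35-fold, to means of 45.0 ± 22.4 (n = 5), 42.8 ± 26.3 and 46.3 ± 19.98 (n = 6). The IRS1KO fold rests on sham replicate 5, at 15.8: without it the sham mean of 4.50 was 2.24, below the level at which a fold is given here, and the log2 fold change 3.67 in place of 3.24. Near-identical stretches among these neighbours could let reads be shared between them, and how such reads were counted is not stated in the sources used.

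Ccr2 encodes the receptor that takes monocytes out of bone marrow and into inflamed tissue. It stood at 10.7, 12.9 and 21.3 in WT sham hearts and at 762, 149, 909, 406 and 384 in WT TAC hearts. Even the lowest of these was above every sham library, and the mean rose 35.6-fold (log2 fold change 4.85, SE 0.50, limma adjusted p = 3.60e-09). In IRS1KO it rose 22.3-fold, from 18.0 ± 12.3 to 401 ± 221, and in IRS2KO 36.7-fold, from 13.4 ± 8.91 to 493 ± 262 (SD, n = 6). Ccr2 in WT TAC replicate 6 was close to replicate 5, while Ccl2 was 40.4 in the former and 340.2 in the latter.

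Ccr1 encodes a receptor for several inflammatory CC ligands and is carried by monocytes, macrophages and other leukocytes. Ccr1 stood at 3.31, 8.38 and 25.7 in WT sham hearts and at 297, 53.8, 278, 272 and 87.8 in WT TAC hearts, a rise of 19.0-fold (log2 fold change 4.09, SE 0.42, limma adjusted p = 4.26e-09). The lowest TAC library was again replicate 2, and no group overlapped. The rises were 9.97-fold in IRS1KO and 11.3-fold in IRS2KO. Ccr1 and Ccr2 lie in 1 cluster of receptor genes on chromosome 9, with Cxcr6 and Xcr1; the eosinophil receptor Ccr3 of the same cluster did not exceed 1.94 in any library, and Ccr9 did not exceed 4.27.

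**Figure D2:**
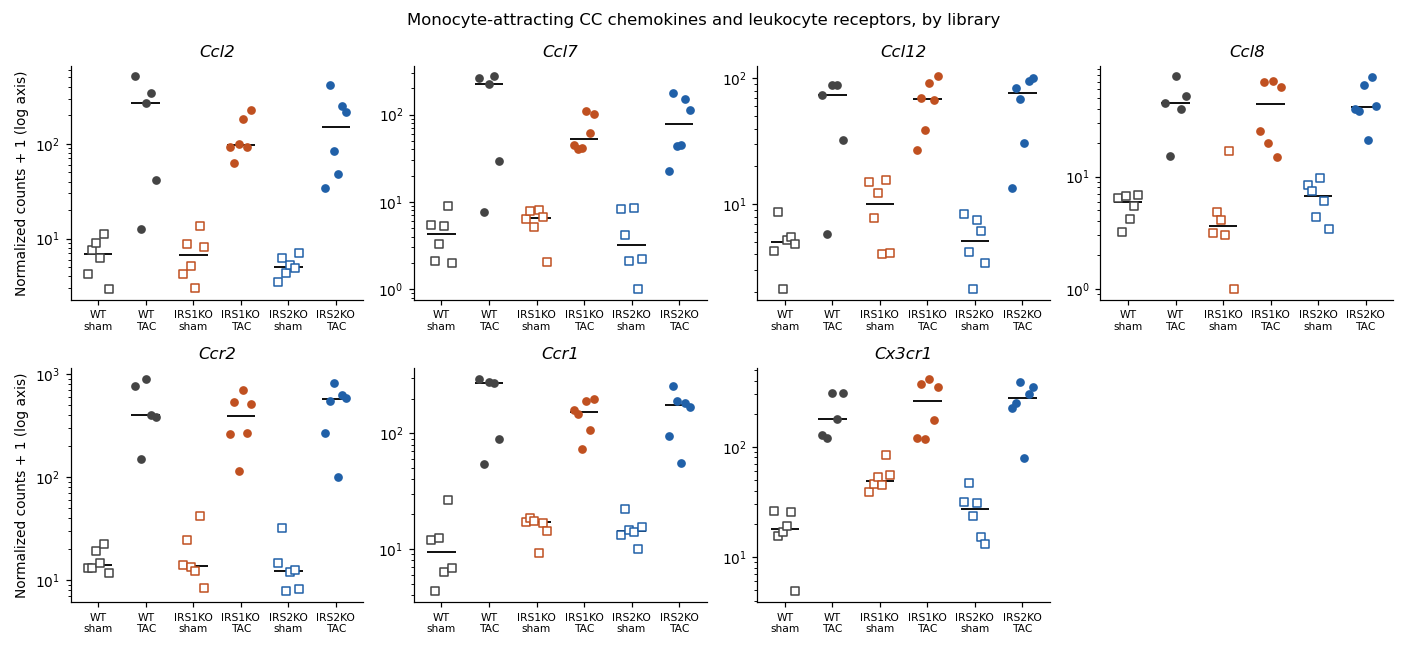
Normalized counts + 1 (y axis, log scale) of 4 monocyte-attracting ligands and 3 leukocyte receptors in each library of the 6 groups; squares are sham, filled circles TAC and lines group medians. The receptors Ccr2, Ccr1 and Cx3cr1 did not overlap between sham and TAC in any genotype, and WT TAC replicate 2 (second circle of its group) is the lowest WT TAC library for all 7 genes.

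Ccl6 and Ccl9 are CCR1 ligands made by mouse macrophages and other myeloid cells, and per kilobase they had the highest levels of the CC ligands in sham hearts of each genotype. Ccl6 stood at 96.3, 131 and 221 in WT sham hearts and at 1228, 296, 965, 1084 and 289 in WT TAC hearts. The groups were apart, with replicates 2 and 6 well below the other 3, and the mean rose 5.46-fold (log2 fold change 2.22, SE 0.34, limma adjusted p = 3.53e-06). Ccl9 did likewise, at 1192, 221, 954, 895 and 315 over a WT sham mean of 91.4 ± 31.2 (n = 6), and rose 7.83-fold. In IRS1KO, Ccl6 rose 4.79-fold to 404 ± 135 and Ccl9 6.19-fold to 442 ± 152 (n = 6). In IRS2KO, Ccl6 rose 2.11-fold to 429 ± 208 and Ccl9 3.61-fold to 392 ± 198 (n = 6), and both groups overlapped with sham.

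The inflammatory CC ligands Ccl3, Ccl4 and Ccl5 were below the level for testing. Ccl3 stood at 55.7, 1.92, 24.3, 25.5 and 5.27 in WT TAC hearts against a highest WT sham library of 4.48, and averaged 11.8 ± 6.64 in IRS1KO TAC and 12.8 ± 8.55 in IRS2KO TAC hearts (n = 6). Ccl4 stood at 35.02, 1.92, 20.7, 18.4 and 2.63 in WT TAC and averaged 10.9 ± 5.60 and 10.02 ± 6.81 in the knockout lines, against sham means of at most 1.77. Ccl5 did not exceed 18.4 in any library. With no filter on low values, Ccl3 and Ccl4 passed the threshold in all 3 genotypes (limma adjusted p at most 0.00233). Ccl5 passed upward in that fit in WT and IRS2KO (limma adjusted p = 0.00562 and 0.0041) and not in IRS1KO (0.109).

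Fractalkine, the product of Cx3cl1, is a membrane-bound chemokine of endothelium, and Cx3cr1 encodes its receptor on monocytes and resident macrophages. Cx3cl1 stood at 73.7, 87.0 and 98.1 in WT sham hearts and at 184, 116, 256, 239 and 335 in WT TAC hearts. The groups were apart, and the mean rose 2.65-fold (log2 fold change 1.32, SE 0.21, limma adjusted p = 5.21e-06), 1.89-fold in IRS1KO and 2.69-fold in IRS2KO. Cx3cr1 stood at 3.88, 16.9 and 25.2 in WT sham hearts and at 128, 120.0, 307, 179 and 307 after TAC, a rise of 12.3-fold (log2 fold change 3.60, SE 0.42, limma adjusted p = 4.50e-08). It rose 4.89-fold in IRS1KO, to 257 ± 135, and 10.2-fold in IRS2KO, to 265 ± 110 (n = 6). The TAC means of the 3 genotypes lay within 1 SD of each other, and the IRS1KO sham level was the one that stood higher, as described with the genotype comparisons.

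Cxcl16 encodes another membrane-bound chemokine and Cxcr6 its receptor on T, NKT and innate lymphoid cells. Cxcl16 rose 2.53-fold in WT to 177 ± 61.9 (n = 5), 2.95-fold in IRS1KO to 262 ± 120 and 3.59-fold in IRS2KO to 213 ± 88.4 (n = 6), with no overlap in any genotype. Its exons share 18.3% of their length with Zmynd15 on the other strand; the kit marks strand, and the sources used do not state the strand setting of the counting. Cxcr6 stood at 12.6, 7.68, 20.7, 17.4 and 13.2 in WT TAC hearts over a sham mean of 2.93. In IRS1KO the mean rose 5.86-fold, to 34.4 ± 42.8 (n = 6), and rested on replicate 2 at 120.3: without it the TAC mean was 17.3 ± 8.59 (n = 5) and the fold 2.93. Cxcr6 passed the threshold in every genotype (limma adjusted p = 0.00137, 0.00148 and 0.000667).

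CXCR2 is the main neutrophil receptor for CXC ligands, and Cxcl1, Cxcl2, Cxcl3 and Cxcl5, which lie together on chromosome 5 (90759360 to 90905938), encode its ligands. Cxcl5 was at 0 in all 6 WT sham libraries and stood at 187, 1.92, 42.4, 42.9 and 7.02 after TAC. Replicate 1 held most of the signal, and without it the WT TAC mean of 56.2 became 23.6 ± 22.1 (n = 4). Cxcl5 passed the threshold in WT (limma adjusted p = 1.45e-06, and 1.18e-05 without replicate 1), in IRS1KO at a TAC mean of 10.3 ± 7.67 (adjusted p = 0.000444) and in IRS2KO at 16.1 ± 13.5 (n = 6, adjusted p = 5.17e-05). Cxcl1 stood at 64.7, 9.60, 8.11, 47.0 and 10.5 in WT TAC hearts, where replicates 1 and 5 were high and the other 3 just above the sham maximum of 7.38. Its mean rose 6.26-fold in WT (limma adjusted p = 0.000115) and 1.87-fold in IRS1KO (adjusted p = 0.0409, up to 0.111 when any of 8 libraries was left out, 0.118 with edgeR and 0.0983 with DESeq2), and in IRS2KO it was 12.0 ± 1.48 against 7.38 (adjusted p = 0.13). Every IRS2KO TAC library nevertheless lay above every IRS2KO sham library for Cxcl1, beside 15.7% of all genes. It passed in IRS2KO with the same total per library and with only the groups compared.

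Cxcl2, Cxcl3 and Cxcr2 were below the level for testing and shared the pattern of replicate 1. In the WT TAC libraries Cxcl2 stood at 86.2, 0, 16.2, 24.5 and 0, Cxcl3 at 57.5, 0, 6.31, 6.13 and 0, and Cxcr2 at 65.6, 1.92, 4.51, 7.15 and 2.63. Their means were 25.4, 14.0 and 16.4, and 10.2, 3.11 and 4.05 without replicate 1. In the knockout lines the highest TAC library was 9.30 for Cxcl2, 2.91 for Cxcl3 and 16.7 for Cxcr2. Without the filter on low values, Cxcr2 passed upward in WT, IRS1KO and IRS2KO (limma adjusted p = 0.00247, 0.0218 and 0.0111). Cxcl2 and Cxcl3 passed upward in WT (limma adjusted p = 0.00369 and 0.002) and in neither knockout line. The summed level of 9 neutrophil markers, among them Csf3r and Lcn2, was 1731 in WT TAC replicate 1 and 235 to 626 in the other 4, 256 to 731 in IRS1KO TAC and 82.5 to 723 in IRS2KO TAC, against at most 101 in sham, so that 1 IRS2KO TAC library, replicate 4, lay in the sham range. S100a8, S100a9 and Mmp8, of the same marker list, had WT TAC means of 24.9, 34.1 and 21.2 against 0.709, 2.97 and 0.365 in WT sham. The part of neutrophils in the Cxcr2 and CXC ligand values was not tested. Cxcr1, the other receptor of this kind, did not exceed 4.51 in any library.

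The promoters of these ligands are shown because the neighbouring genes Cxcl1, Cxcl2 and Cxcl3 were high in the same library. They are windows of 300 bases around the RefSeq start in GRCm38.p6, 5′ to 3′ on the gene's strand, with matches to the NF-kappaB motif (searched by its consensus on both strands, where matches can overlap) in capitals. Cxcl1 is at chr5:90890995-90891294, Cxcl2 at chr5:90903649-90903948 and Cxcl3 at chr5:90785851-90786150, all on the plus strand, and Cxcl10, an interferon-induced gene, is at chr5:92348840-92349139 on the minus strand.
Cxcl1: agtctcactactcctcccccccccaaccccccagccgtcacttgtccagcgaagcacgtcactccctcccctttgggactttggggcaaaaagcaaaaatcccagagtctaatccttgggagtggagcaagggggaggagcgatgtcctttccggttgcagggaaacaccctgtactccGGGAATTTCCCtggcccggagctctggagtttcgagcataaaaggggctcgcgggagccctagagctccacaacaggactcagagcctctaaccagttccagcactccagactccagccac
Cxcl2: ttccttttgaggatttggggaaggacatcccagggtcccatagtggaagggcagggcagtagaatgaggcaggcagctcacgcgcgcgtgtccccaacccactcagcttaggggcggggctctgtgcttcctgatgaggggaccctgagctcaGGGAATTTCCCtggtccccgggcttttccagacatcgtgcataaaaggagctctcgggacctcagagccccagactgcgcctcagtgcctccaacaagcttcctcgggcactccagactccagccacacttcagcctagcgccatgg
Cxcl3: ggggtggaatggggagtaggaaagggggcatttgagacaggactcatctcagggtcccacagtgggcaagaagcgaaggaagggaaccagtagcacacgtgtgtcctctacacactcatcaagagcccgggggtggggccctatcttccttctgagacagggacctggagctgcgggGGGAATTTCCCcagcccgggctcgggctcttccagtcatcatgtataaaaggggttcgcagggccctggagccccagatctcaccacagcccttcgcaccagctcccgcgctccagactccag
Cxcl10: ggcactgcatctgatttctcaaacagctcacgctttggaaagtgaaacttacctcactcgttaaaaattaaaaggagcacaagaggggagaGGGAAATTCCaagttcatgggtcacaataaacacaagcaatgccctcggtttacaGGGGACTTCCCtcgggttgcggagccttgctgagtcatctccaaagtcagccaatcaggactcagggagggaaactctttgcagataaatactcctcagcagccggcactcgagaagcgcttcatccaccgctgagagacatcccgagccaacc
Cxcl1, Cxcl2 and Cxcl3 held the same letters, GGGAATTTCC, starting 71, 97 and 73 bases before the start, and each match also read as the motif on the other strand 1 base further on. Cxcl10 held the motif at 159 and 104 bases before the start, the latter overlapping a further match, and TGAGTCA at 74 bases before it. RefSeq windows were found for 38 of the 52 genes, 19 of them among the 26 tested. Counting the first window listed for each gene, the NF-kappaB motif was in 9 of the 38 (Ackr2, Ccl1, Ccl9, Ccr1, Ccr3, Cxcl1, Cxcl2, Cxcl3 and Cxcl10) and in 8.18% of 27025 RefSeq promoters of that length. TGANTCA was in 6 of 38 (7.93% of promoters), TTCNNNGAA in 3 (8.47%), the interferon response core in 2 (3.49%) and TATAAA in 11 (14.16%), each counted on both strands. Second windows, which were not counted, held the NF-kappaB motif in Ccr6 and TATAAA in Ccl25. These are matches of letters, and factor binding was not measured.

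**Figure D3:**
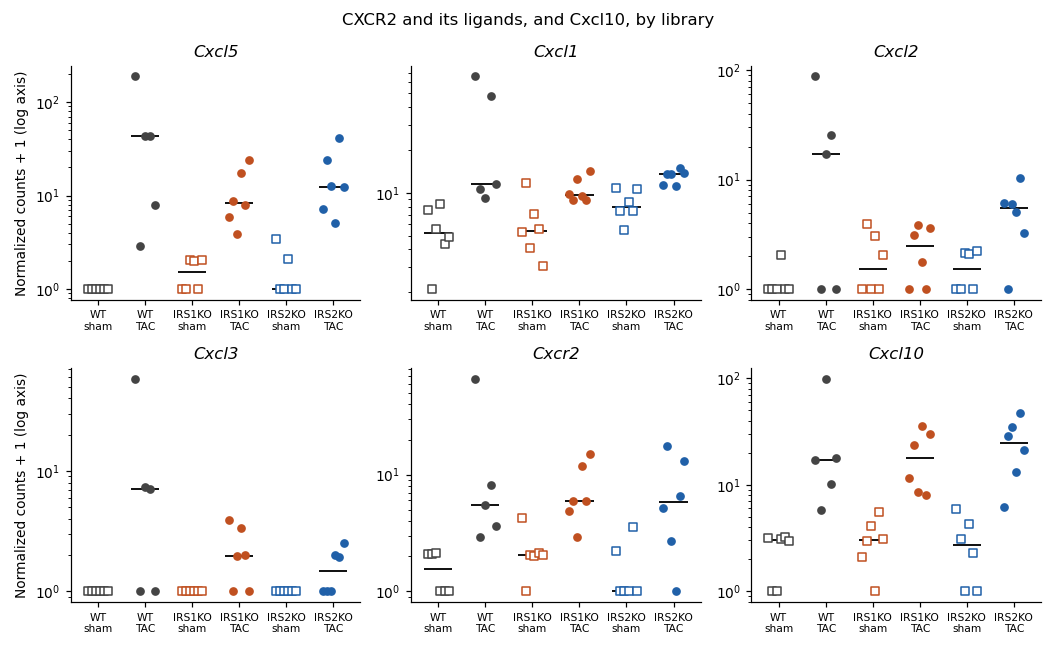
Normalized counts + 1 (y axis, log scale) of Cxcr2, 4 of its ligands and Cxcl10 in each library; squares are sham, filled circles TAC and lines group medians. WT TAC replicate 1 (first circle of its group) is the highest of all 35 libraries for Cxcl5, Cxcl1, Cxcl2, Cxcl3 and Cxcr2, and WT TAC replicate 3 for Cxcl10.

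Cxcl9, Cxcl10 and Cxcl11 are interferon-induced ligands of CXCR3, which guides activated T cells, and they too are neighbours (chromosome 5, 92321347 to 92365485), but they did not behave alike. Cxcl10 stood at 16.2, 4.80, 98.2, 9.195 and 16.7 in WT TAC hearts against at most 2.24 in WT sham, and the TAC mean of 29.0 became 11.7 ± 5.73 (n = 4) without replicate 3. It rose in WT, IRS1KO and IRS2KO (limma adjusted p = 0.000135, 0.000303 and 3.22e-05), to 18.6 ± 11.9 and 24.3 ± 15.0 in the knockout lines (n = 6). Cxcl9 had about the same mean in WT sham (32.3 ± 9.45, n = 6) as in WT TAC (34.4 ± 25.1, n = 5), where replicate 3 was at 78.4 and the others between 15.3 and 28.1. It was not past the threshold in IRS1KO or IRS2KO either (limma adjusted p at least 0.575). Cxcl11, annotated as a polymorphic pseudogene, did not exceed 7.74, and Cxcr3 averaged 5.08 or less in every group. The T and NK cell markers summed to 36.8 to 68.5 in WT TAC hearts and 20.1 to 34.9 in WT sham hearts, and overlapped in IRS1KO (20.01 to 56.5 after TAC, 20.7 to 37.3 in sham) and IRS2KO (26.9 to 67.6 and 15.6 to 28.7).

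Cxcl12, the most abundant of the 52 genes in 5 of 6 groups per kilobase, encodes the constitutive ligand of CXCR4 and of the scavenger ACKR3, and in the heart it comes largely from stromal and endothelial cells. It stood at 2389, 3014 and 3534 in WT sham hearts and at 2373, 2274, 2485, 2025 and 2287 after TAC. Of these, 4 lay below every sham library, and the mean fell 1.31-fold (log2 fold change -0.38, SE 0.12, limma adjusted p = 0.0112). The call was lost with the same total per library (log2 fold change -0.12, adjusted p = 0.346). In IRS1KO it fell 1.51-fold, from 3038 ± 242 to 2017 ± 393 (n = 6, limma adjusted p = 4.75e-05), and in IRS2KO it was 2536 ± 187 in sham and 2198 ± 526 after TAC (adjusted p = 0.0856, and 0.00697 and 0.0455 without IRS2KO TAC replicate 4, which was at 3118, or 1). With the same total per library the IRS2KO difference was upward (0.10, adjusted p = 0.378).

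Ackr3 fell in every genotype. It stood at 726, 847 and 1063 in WT sham hearts and at 506, 736, 389, 526 and 476 in WT TAC hearts, where replicate 2 alone reached the sham range. The fall was 1.64-fold in WT (log2 fold change -0.73, SE 0.25, limma adjusted p = 0.0148, and 0.0504 without WT TAC replicate 3), 2.04-fold in IRS1KO and 1.94-fold in IRS2KO (adjusted p = 0.000161 and 0.000206). Cxcr4 moved the other way, from 74.1 ± 18.0 to 118 ± 25.3 in WT (1.60-fold, limma adjusted p = 0.00618) and from 88.3 ± 21.2 to 123 ± 37.6 in IRS1KO (1.39-fold, adjusted p = 0.0448). The IRS1KO call for Cxcr4 was lost when any of 8 libraries was left out, with adjusted p up to 0.145, and IRS2KO had 87.9 ± 20.5 and 113 ± 24.9 (adjusted p = 0.108, and 0.0462 without sham replicate 2). Cxcr4 passed in IRS2KO with the same total per library. Of 12 endothelial markers 7, 10 and 9 fell in WT, IRS1KO and IRS2KO and none rose. Of all tested genes 26.6%, 31.7% and 31.1% fell. The endothelial sums were 16623 to 18177 in WT sham and 11515 to 16376 in WT TAC hearts, and the median log2 fold changes -0.37, -0.55 and -0.48. Scaling to the same total moved the median of all genes up by 0.26, 0.30 and 0.33. Fibroblast markers went the other way, with 8, 7 and 7 of 10 higher and 1, 2 and 2 lower. The part of either cell type in the falls was not tested.

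**Figure D4:**
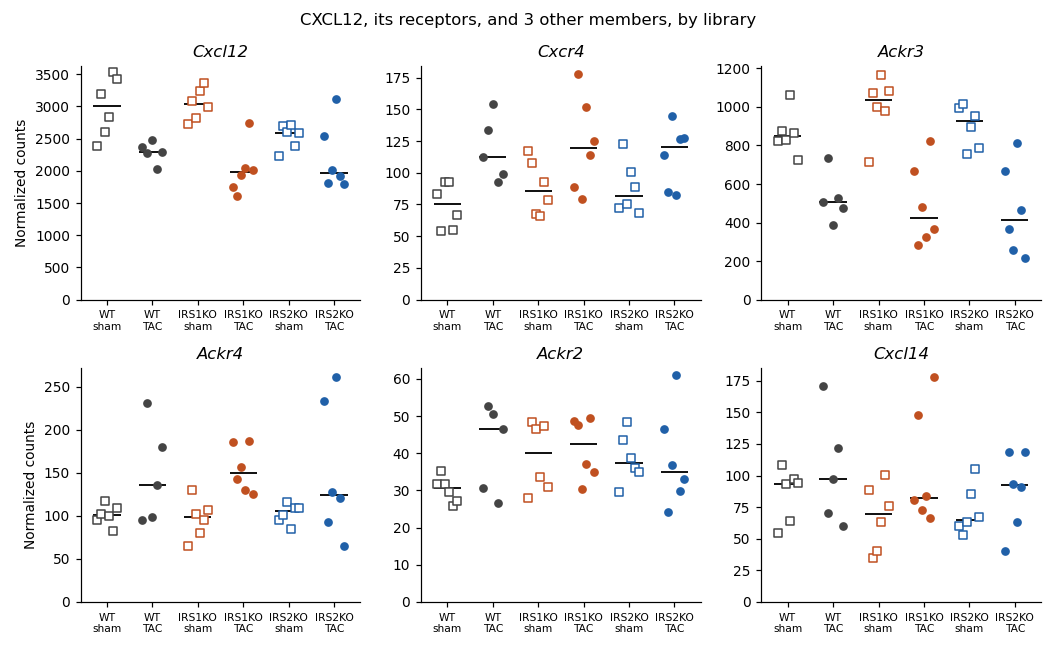
Normalized counts (y axis, linear, from 0) of Cxcl12, Cxcr4, Ackr3 and 3 further genes in each library; squares are sham, filled circles TAC and lines group medians. Ackr3 falls from medians of 847 to 1037 in sham to 415 to 506 after TAC, and Cxcl12 and Ackr3 stay high in IRS2KO TAC replicate 4, at 3118 and 813.

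Ackr4, which removes CCL19, CCL21 and CCL25, rose 1.60-fold in IRS1KO, from 96.3 ± 22.6 to 154 ± 26.9 (n = 6, limma adjusted p = 0.0115). In WT it was 101 ± 11.6 and 148 ± 57.8, and in IRS2KO 103 ± 11.2 and 150.1 ± 79.2 (adjusted p = 0.106 and 0.156, the latter 0.0212 without TAC replicate 6). With the same total per library it passed in both (adjusted p = 0.00459 and 0.00246). The TAC libraries of both were widely spread, at 95.2, 231, 98.2, 136 and 180.0 in WT. Ackr2, the scavenger of inflammatory CC chemokines, stayed between group means of 30.2 and 41.4 (limma adjusted p at least 0.0957 in each genotype, and 0.0308 in WT without TAC replicate 5), and Ackr1, of venular endothelium and red cells, did not exceed 14.4. With the same total per library, Ackr2 passed in WT. Ackr1 averaged 3.03 ± 2.44 (SD, n = 6) in WT sham and 7.88 ± 4.28 (n = 5) in WT TAC hearts, and with no filter on low values it passed in WT (limma adjusted p = 0.0406) and not in IRS1KO or IRS2KO (adjusted p = 0.576 and 0.307). The exons of Ackr1 share 25.7% of their length with Cadm3 on the same strand, and how such reads were counted is not stated in the sources used. Cxcl14 had group means of 67.1 to 105 and Ccl25 of 22.1 to 32.2, and neither passed the threshold after TAC in any genotype. Cxcl14 in IRS1KO, at 67.1 and 105, came nearest (limma adjusted p = 0.0568) and passed without sham replicate 1 or 5 or TAC replicate 3 or 5 (adjusted p down to 0.0267). It also passed with the same total per library and with DESeq2.

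Ccl11 and Ccl24 encode the eotaxins, which act on CCR3 of eosinophils, and they parted from their neighbours. Ccl11 lies between Ccl7 and Ccl12 (chromosome 11, 82057823 to 82062955). In IRS1KO it stood at 12.4, 16.4 and 24.9 in sham and did not exceed 7.62 after TAC. All 6 TAC libraries were below all sham libraries, beside 16.7% of all genes that did so, and the mean fell 4.71-fold to 3.77 (log2 fold change -2.10, SE 0.48, limma adjusted p = 0.0003). In WT hearts Ccl11 stood at 5.27, 10.01 and 12.5 in sham and at 70.0, 5.76, 11.7, 19.4 and 4.39 after TAC (limma adjusted p = 0.418, and 0.0403 with edgeR and 0.0477 with DESeq2, both upward). That mean of 22.3 rested on replicate 1, and was 10.3 ± 6.84 (n = 4) without it. In IRS2KO the means were 6.89 in sham and 4.16 after TAC (limma adjusted p = 0.0939, and 0.0252 without TAC replicate 5). The IRS1KO fall thus started from the highest sham level of any genotype, and its TAC mean of 3.77 was near the 4.16 of IRS2KO. Between IRS1KO and WT in sham, Ccl11 passed with only the groups compared and not in the model of all groups.

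Ccl24 fell 3.41-fold in IRS1KO, from 14.8 ± 6.41 to 4.34 ± 3.30 (n = 6, log2 fold change -1.64, SE 0.45, limma adjusted p = 0.00204). Replicate 5 was at 10.9 after TAC and the other 5 at 3.89 or less. In WT it was 13.4 ± 4.47 in sham and stood at 39.5, 2.88, 11.7, 18.4 and 6.15 after TAC (adjusted p = 0.764), and in IRS2KO 16.9 ± 7.23 and 9.44 ± 6.20 (adjusted p = 0.0565, and between 0.0278 and 0.0443 without sham replicate 3 or TAC replicate 1, 4 or 5 or with the replicate number as a block). WT TAC replicate 1 was thus the highest WT TAC library for both eotaxins as well as for the CXCR2 ligands. The eosinophil and mast cell markers, of which 7 of 8 were in the table, summed to 88.4 to 132 in WT sham and 91.2 to 128 in WT TAC hearts.

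The remaining genes were low. Ccl22 and Ccl17, ligands of CCR4 made by dendritic cells, reached 20.7, 0, 17.1, 20.4 and 11.4 and at most 7.18 in WT TAC hearts, while Ccr4 did not exceed 1.02. Ccl22 averaged 1.21 in IRS1KO TAC and 6.84 ± 3.09 in IRS2KO TAC hearts (n = 6). Ccr7, which brings dendritic cells to lymph nodes, stood at 11.7, 2.88, 23.4, 14.3 and 15.8 in WT TAC over a sham mean of 1.42, with TAC means of 3.76 in IRS1KO and 6.27 in IRS2KO. Xcr1, of cross-presenting dendritic cells, lay between 3.69 and 17.3 in all libraries, and its ligand Xcl1 did not exceed 2.51. Cxcr5 did not exceed 8.11 and its ligand Cxcl13 1.10. The highest library of the others was 10.2 for Ccr10, 6.46 for Ccl28, 3.69 for Ccr6, 2.85 for Ccl1, 1.13 for its receptor Ccr8, and 1.28 for Cxcl17. When low values were not filtered, Ccl17 passed upward in all 3 genotypes (limma adjusted p at most 0.00162). Ccl22 passed upward in WT and IRS2KO (limma adjusted p = 7.88e-06 and 1.49e-05). Ccr7 and Cxcr1 passed upward in WT only, Ccr3, Ccr9 and Cxcl11 in IRS1KO only, and Xcr1 and Cxcr3 in IRS2KO only. No gene below the filter passed as lower after TAC.

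The second question was whether loss of Irs1 or Irs2 in cardiomyocytes changed these genes. In sham hearts 1 of the 26 differed between IRS1KO and WT, beside 4.65% of all genes. That gene was Cx3cr1, at 37.7, 48.2 and 82.5 in IRS1KO and 3.88, 16.9 and 25.2 in WT. All 6 IRS1KO libraries were above all WT libraries, beside 2.34% of all genes (3.10-fold, log2 fold change 1.71, SE 0.40, limma adjusted p = 0.00765, at most 0.0335 with any library left out), and edgeR and DESeq2 also called it. Of the 18 macrophage and monocyte markers tested, none passed in that comparison (limma), and their sums were 4305 to 5711 in IRS1KO and 4305 to 5528 in WT sham hearts. Against IRS2KO sham, with 12.0, 26.3 and 45.7, the IRS1KO level of Cx3cr1 was 2.03-fold higher and did not pass (limma adjusted p = 0.0951), though it passed with only the groups compared.

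Ccl6 was the 1 gene that differed between IRS1KO and IRS2KO in sham, beside 8.3% of all genes. It stood at 46.5, 79.5 and 120 in IRS1KO and at 147, 200 and 278 in IRS2KO, with WT between them at 96.3, 131 and 221. Every IRS1KO library lay below every IRS2KO library, beside 4.72% of all genes (2.41-fold, log2 fold change -1.28, SE 0.33, limma adjusted p = 0.0101, at most 0.0369 with any library left out). Cxcl12, Cxcl16 and Ccl11 were without overlap and higher in IRS1KO (3.1% of all genes) and did not pass (adjusted p = 0.19, 0.178 and 0.107). IRS2KO and WT sham hearts did not differ in any of the 26 genes (limma, beside 0.0% of all genes), with 0 at an unadjusted p under 0.05 and 0 by edgeR and DESeq2.

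**Figure D5:**
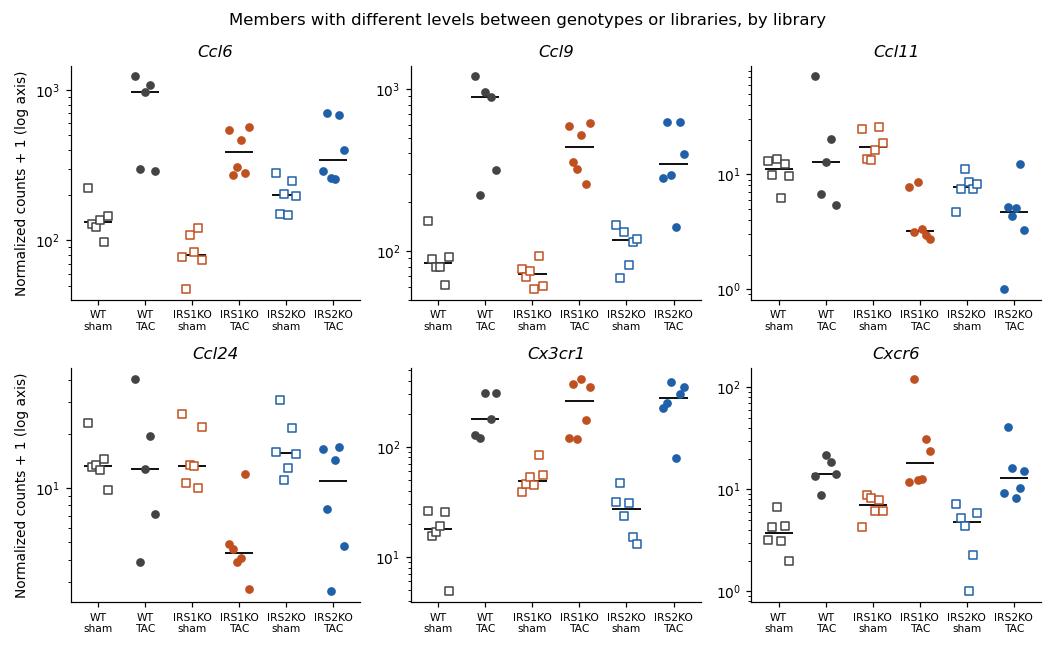
Normalized counts + 1 (y axis, log scale) of 6 genes with unequal levels between genotypes or libraries; squares are sham, filled circles TAC and lines group medians. Cx3cr1 is higher in IRS1KO sham (37.7 to 82.5) than in WT sham (3.88 to 25.2), Ccl6 is lower in IRS1KO sham than in IRS2KO sham without overlap, and Cxcr6 stands at 120.3 in IRS1KO TAC replicate 2.

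After TAC, Ccl11 was the 1 gene of 26 that differed between IRS1KO and WT, beside 4.7% of all genes. It averaged 3.77 in IRS1KO TAC and 22.3 in WT TAC (5.91-fold, log2 fold change -1.79, SE 0.50, limma adjusted p = 0.0308). The call rested on single libraries: the adjusted p was 0.136 without WT TAC replicate 1, where the fold was 2.74, and it was also lost without WT TAC replicate 5 or IRS1KO TAC replicate 2, 4 or 6. Ccl24 (adjusted p = 0.09), Cxcl1 (0.162) and Cxcl5 (0.233) were lower in IRS1KO and did not pass in limma, and passed in both edgeR and DESeq2. In limma Ccl24 passed without WT TAC replicate 2 (0.0254) or IRS1KO TAC replicate 5 (0.0272) and with the replicate number as a block (0.0472), and Cxcl5 without WT TAC replicate 2 (0.0464). WT TAC replicate 1 was the highest WT TAC library for all 4 of these genes, and none of the 4 passed in limma without it. Ccl22 was also lower, at 1.21 against 20.7, 0, 17.1, 20.4 and 11.4 in WT, and passed when low values were not filtered (limma adjusted p = 0.00644). Of the other genes below the filter, Cxcr1 was lower in that fit (group means of 0.258 in IRS1KO TAC and 2.00 in WT TAC, adjusted p = 0.0188) and Cxcl11 higher (3.91 and 0.711, adjusted p = 0.0479).

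IRS2KO and WT hearts after TAC differed in none of the 26 (limma, beside 0.0% of all genes), with 3 at an unadjusted p under 0.05 and 0 by edgeR and DESeq2. The smallest was Ccl11, at 4.16 in IRS2KO TAC against 22.3 in WT TAC (limma adjusted p = 0.552). IRS1KO and IRS2KO after TAC also differed in none (limma, beside 2.36% of all genes), with 0 at an unadjusted p under 0.05 and 0 by either other tool. The differences of the TAC response gave no call in limma: 4 genes had an unadjusted p under 0.05 for IRS1KO minus WT (0.11% of all genes called), 4 for IRS2KO minus WT (0.0%) and 3 for IRS1KO minus IRS2KO (0.409%). The smallest p was for Ccl11, IRS1KO minus WT (difference of log2 fold changes -2.59, SE 0.69, limma adjusted p = 0.165), which edgeR and DESeq2 called (adjusted p = 0.0425 and 0.00563). The higher sham level of Ccl11 in IRS1KO, described above, is part of that difference. No other of the 26 was called by either tool. The smaller rise of Cx3cr1 in IRS1KO (difference from WT -1.48, SE 0.58) and of Ccl6 in IRS2KO (-1.24, SE 0.47) had adjusted p of 0.47 and 0.815 in limma.

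Most genes of the lists around the receptors rose. Beside the 28.3%, 32.4% and 31.3% of all tested genes that rose in WT, IRS1KO and IRS2KO and the 26.6%, 31.7% and 31.1% that fell, they counted as follows. In the list of signalling genes downstream of chemokine receptors 28 of 34 tested rose and 1 fell in WT, 28 and 2 in IRS1KO, and 30 and 1 in IRS2KO, with medians of 0.92, 0.93 and 0.90. Gnai2, the G protein subunit through which these receptors signal, went from 2195 to 3304 in WT (limma adjusted p = 6.36e-06). In the list of cytokines, receptors and NF-kappaB genes that induce chemokines 15 of 18 rose and 1 fell in WT, 11 and 2 in IRS1KO, and 13 and 1 in IRS2KO, with medians of 0.70, 0.58 and 0.65. Tnfrsf1a, a TNF receptor, rose 2.01-fold in WT, and Nfkbia, the NF-kappaB inhibitor, fell 1.68-fold in WT and 2.40-fold in IRS2KO (limma adjusted p = 0.000447 and 6.52e-07). Among relatives outside the naming rule, the platelet chemokine Pf4 rose 4.79-fold, 2.97-fold and 3.67-fold, and the non-signalling receptor Ccrl2 fell 1.81-fold, 1.48-fold and 2.22-fold.

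Most markers of macrophages and monocytes rose after TAC, as did many of the CC ligands and receptors. Of 18 tested, 17, 15 and 13 rose in WT, IRS1KO and IRS2KO, and 0, 1 and 0 fell, to be read against the same shares of all genes (28.3%, 32.4% and 31.3% higher, 26.6%, 31.7% and 31.1% lower), as are the other marker counts here. Their summed level was 4305 to 5528 in WT sham and 10524 to 25657 in WT TAC hearts, 10125 to 22632 in IRS1KO TAC and 8369 to 23336 in IRS2KO TAC. The lowest library of each group was again WT TAC replicate 2, IRS1KO TAC replicate 5 and IRS2KO TAC replicate 4, and the first and last of these were the lowest of their groups for 15 and 14 of the 26 chemokine and receptor genes. IRS1KO did not share this: TAC replicate 5 was the lowest of its group for 4 of the 26 and the highest for 5. There, TAC replicate 3 was the lowest for 10. Of 10 fibroblast markers 8, 7 and 7 rose and 1, 2 and 2 fell, of 12 cardiomyocyte markers 10, 8 and 9 fell and 0, 0 and 1 rose, and of 9 smooth muscle and pericyte markers 4, 3 and 4 rose and 4 fell in each genotype. Few markers of the other leukocytes were high enough to test: 3, 2 and 2 of 3 neutrophil markers rose, 1, 0 and 0 of 1 T and NK cell marker, 1 of 2 B cell markers in each genotype with 1 fall in IRS1KO, and 2 of 4 dendritic cell markers in each with 0, 2 and 1 falls. Of 4 platelet markers 3, 2 and 2 rose and 0, 1 and 0 fell, and 1 mast cell and eosinophil marker rose in IRS2KO. The part of cell numbers in the chemokine values was not tested.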

How the data were processed

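Poly(A) RNA of 35 mouse heart apex samples was sequenced from stranded TruSeq libraries, per the labels' protocols. The authors used HISAT2 2.0.6, HTSeq 0.7.1 and DESeq2, per the submitters' processing notes. The deposited values are a signal per gene, taken here as gene counts divided by a size factor, because every value was a whole multiple of 1 read's worth within 0.001; edgeR 4.0.16 and DESeq2 1.42.0 were run on the whole reads so recovered, as alternatives. The build is GRCm38, and 99.6% of gene IDs matched the annotation.

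Genes with a mean of at least 10 over all libraries (13695) were tested with limma 3.58.1 in R 4.3.3, on log2(value + 1), with trend and robust settings and 6 group means in 1 model. Fold changes of low genes are understated on that scale. P-values are two-sided, with Benjamini-Hochberg adjustment over all tested genes of a comparison and a threshold of 0.05. Folds are ratios of group means, given only where both means are at least 3. The test was tested on simulated data. Every tested chemokine or receptor gene is named, except 1 that is counted but not reported here, the others with their range, and of each other list at most 5 genes by mean level. The genes, lists and motifs were chosen with earlier results of these data known. Alternatives were the pseudocount (0.5 or 5), the filter (none or a mean of 50), 1 total per library, only the groups compared, a replicate block and leaving out each library; a further one, added after seeing the data, dropped from each genotype the TAC library most like sham. Ccl19, Ccl20, Ccl26 and Cxcl15 were not analysed here.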

Additional observations from a re-analysis of the deposited data

Results flagged for a closer look

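In 15 of 156 sets of 1 gene in 1 group, 1 library stood apart from the rest by Dixon's 95% criterion, always the highest. The highest and the lowest library were both searched, and chance gives about 7.8 for the 2 sides together if values are normally distributed. Unlogged counts need not be so distributed, and the cause was not tested. In WT TAC hearts these were replicate 1 for Cxcl5 (187 normalized counts, others at most 42.9) and Ccl11 (70.0, others at most 19.4), and replicate 3 for Cxcl10 (98.2, others at most 16.7) and Cxcl9 (78.4, others at most 28.1). Cxcr6, the CXCL16 receptor, stood at 120.3 in IRS1KO TAC replicate 2 and at 40.0 in IRS2KO TAC replicate 2, against at most 29.7 and 15.0 in the other libraries of each group. Among the eotaxins, Ccl24 was 10.9 in IRS1KO TAC replicate 5 (others at most 3.89) and Ccl11 was 11.2 in IRS2KO TAC replicate 5 (others at most 4.16).

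In IRS1KO sham hearts replicate 5 stood apart for Cxcl9 (76.8, others at most 23.8) and Ccl8 (15.8, others at most 3.87), and it was the highest of its group for 13 of the 26 tested genes. In IRS2KO sham hearts replicate 2 had the highest Ccr2 (30.8, others at most 13.5). In WT sham hearts replicate 1 stood apart for Ccl9 (151, others at most 91.1) and Ccl24 (21.9, others at most 13.4), replicate 5 for Ccr1 (25.7, others at most 11.3) and replicate 3 for Ccl25 (49.9, others at most 33.9).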

How the results depend on the processing

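Of 57 calls for TAC against sham, 53 held under every alternative run; the exceptions were Cxcl12 and Ackr3 in WT and Cxcr4 and Cxcl1 in IRS1KO. No call changed sign. The number of chemokine and receptor genes called was 30 in WT TAC with no filter, and 14 in IRS1KO TAC with a mean of at least 50, where fewer genes were tested. For IRS1KO against WT in sham it was 5 with only the groups compared, with Ccl6, Ccl11 and Cx3cl1 among the added genes. For IRS1KO against IRS2KO in sham it was 2 with the same total per library, which added Cxcl12. With only the groups compared it was 6, which added Cxcl12, Cxcl16, Ccl9, Ccl11 and Cx3cr1. For IRS1KO against WT after TAC it was 4 with no filter, with edgeR and with DESeq2, 0 with a mean of at least 50 or only the groups compared, and 3 without the TAC libraries nearest to sham. For IRS1KO against IRS2KO after TAC it was 1 with no filter, Ccl22, which was lower in IRS1KO (limma adjusted p = 0.0417). For the response of IRS1KO minus WT it was 1 with edgeR and with DESeq2. The cause was not tested. Leaving out single libraries gave 18 to 20, 20 to 22 and 16 to 18 calls for TAC in WT, IRS1KO and IRS2KO, and 0 to 3 for IRS1KO against WT after TAC.

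With the replicate number as a block, 19, 21 and 17 genes were called for TAC, and 2 for IRS1KO against WT after TAC, Ccl11 and Ccl24. Ccl24 also passed for TAC in IRS2KO, and Cxcr4 in IRS1KO was lost (limma adjusted p = 0.0587). The numbers share no stated origin, 38 of 85 pairs of libraries with the same number correlated above 0.1, and 15 of 35 libraries correlated best with their own number.

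Over all genes, the same total per library gave 6221 higher and 1583 lower in WT TAC (3877 and 3638 as reported), 7181 and 2164 in IRS1KO (4442 and 4335) and 7438 and 1890 in IRS2KO (4286 and 4260). Leaving out single libraries moved the 643 genes of IRS1KO against WT after TAC to between 369 and 1313, the 15 of the response of IRS1KO minus WT to between 2 and 53, and the 56 of IRS1KO minus IRS2KO to between 17 and 180. Genes under 10 normalized counts rest on few reads; with no filter, Ccl5, Cxcr3, Ccr7 and Ccl17 did not pass between genotypes after TAC (limma adjusted p at least 0.163).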
